A study of Homo sapiens with 6 samples.

Results

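The RNA levels of 29 genes of cholesterol synthesis, sterol sensing and cholesterol transport were measured in A549 cells depleted of STAU1. The genes were taken by symbol from the deposited table of read counts, which lists 30493 genes, and all 29 were found there and had enough reads to be tested among 17089 genes. Libraries titled si_STAU1 and labelled as STAU1 knockdown (n = 3) were compared with libraries titled NC and labelled as carrying a control plasmid (n = 3). All 6 came from A549, an established human lung adenocarcinoma cell line, and no other treatment or time point is named. Separate cultures behind the libraries are not mentioned in the labels, and every p-value therefore reflects library-to-library spread alone, possibly technical. STAU1, a double-stranded RNA-binding protein that takes part in mRNA decay, transport and translation, had 16.02, 15.7 and 14.6 counts per 1000000 counted reads (CPM) in knockdown libraries 1 to 3, against 120.5, 125 and 117 CPM in controls 1 to 3.

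Cells make cholesterol from acetyl-CoA through mevalonate, the isoprenoid diphosphates, squalene and lanosterol. When membranes of the endoplasmic reticulum are poor in sterol, the escort protein SCAP carries the SREBP transcription factors, encoded by SREBF1 and SREBF2, to the Golgi, where they are cleaved and released to activate genes of synthesis and uptake. When sterol is plentiful, the INSIG proteins hold SCAP and its cargo back, and oxysterols activate the LXR receptors, which induce efflux transporters. INSIG1 is itself a target of the SREBP factors, which closes a feedback loop, whereas transcription of INSIG2 is not known to depend on them in the same way.

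In knockdown libraries 9 of 20 enzymes of cholesterol synthesis rose modestly, LSS, SQLE, SC5D, CYP51A1 and MSMO1 among them, while 3 fell and 8 were not called. The mevalonate kinases MVK and PMVK and both INSIG genes fell. The call rule was a Benjamini-Hochberg adjusted p below 0.05 from edgeR's quasi-likelihood test. Of the 29 genes 13 were called higher and 5 lower, and 11 were not called. That is 44.8% called higher, where 22.2% of all genes tested were, and 17.2% called lower, where 21.9% of all genes tested were. In either direction 62.1% of the 29 genes were called, against 44.1% of all genes tested. Among the 9574 tested genes with a mean of at least 10 CPM, a level that every one of the 29 reached, 28.3% were called higher and 31.8% lower. The counts of each shorter list below are to be read beside these shares. The 29 genes and the lists were chosen with earlier results of these data known. The limit of 10 CPM was set after the values were seen. The contrasts with all genes are therefore description and not an independent test. The median log2 fold change of the 29 genes was 0.06, against 0 over all genes tested, and the largest rise, that of LSS, was 1.24-fold. All 3 knockdown libraries lay above all 3 controls for 16 of the 29 genes, where this held for 25.8% of all genes tested, and below them for 5 genes, where this held for 25.5%.

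The direction counts depended on the scaling. Values were scaled with TMM factors unless another scale is named; the median change of all genes was then 0, and 50.3% of all calls were higher. With total-count scaling 69.5% of all calls were higher and the 29 genes split into 19 higher and 2 lower. On the deposited FPKM scale (fragments per kilobase of transcript, scaled by the authors to sequencing depth) 77.3% of all calls were higher with log2(FPKM + 1) and 77.2% with log2(FPKM + 0.1), and the 29 genes split into 17 higher and 0 lower with either. Of the 13 rises, 12 were called under all 16 alternative settings, ABCA1 being the exception, while each of the 5 falls lost its call on both FPKM scales.

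Libraries held between 30354219 and 35431441 counts, and mitochondrially encoded genes took 15.8% to 16.1% of them in knockdown libraries and 17.3% to 17.9% in controls. All 9 A549 and epithelial markers were tested, with a summed level of 7674 to 8125 FPKM in knockdown libraries and 7699 to 7829 FPKM in controls, and 3 were called higher and 4 lower. That sum hides opposite shifts of single markers. CDH1 rose by a log2 of 0.50 (SE 0.03, edgeR adjusted p = 4.9e-16). KRT8 fell by 0.39 (SE 0.02, edgeR adjusted p = 4.4e-19) and KRT18 by 0.45 (SE 0.02, edgeR adjusted p = 2e-20) on the log2 scale. Of 9 immune, endothelial and fibroblast markers 4 had enough reads to be tested, of which 3 were called higher and 0 lower, and their summed level was 3.42 to 3.76 FPKM in knockdown libraries and 1.98 to 2.10 FPKM in controls. The fibroblast proteoglycan gene LUM made up most of this sum, with 325, 324 and 332 counts in knockdown libraries and 190, 193 and 182 in controls. DCN, another fibroblast gene listed, had 3, 6 and 6 counts against 5, 5 and 5 in controls and was not tested. Also called higher were CDH5 (56, 49 and 58 counts against 23, 25 and 27) and PDGFRA (12, 14 and 19 against 4, 3 and 13, with overlapping groups). PDGFRA passed the filter on reads only because of its knockdown libraries, so its call carries no weight here. Of 6 hepatocyte and erythroid markers 2 were tested, with 1 called higher and 0 lower and a summed level of 4.74 to 5.94 FPKM in knockdown libraries and 2.71 to 2.97 FPKM in controls. SERPINA1, the gene called, made up most of that sum, at a mean of 4.77 FPKM in knockdown libraries and 2.55 FPKM in controls. ALB, at 0.347 FPKM in knockdown libraries and 0.247 FPKM in controls, was not called. The part of these shifts in the values of the cholesterol genes was not tested. A change in the number of cells of a type and a change in RNA per cell cannot be told apart in bulk libraries.

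**Figure D1:**
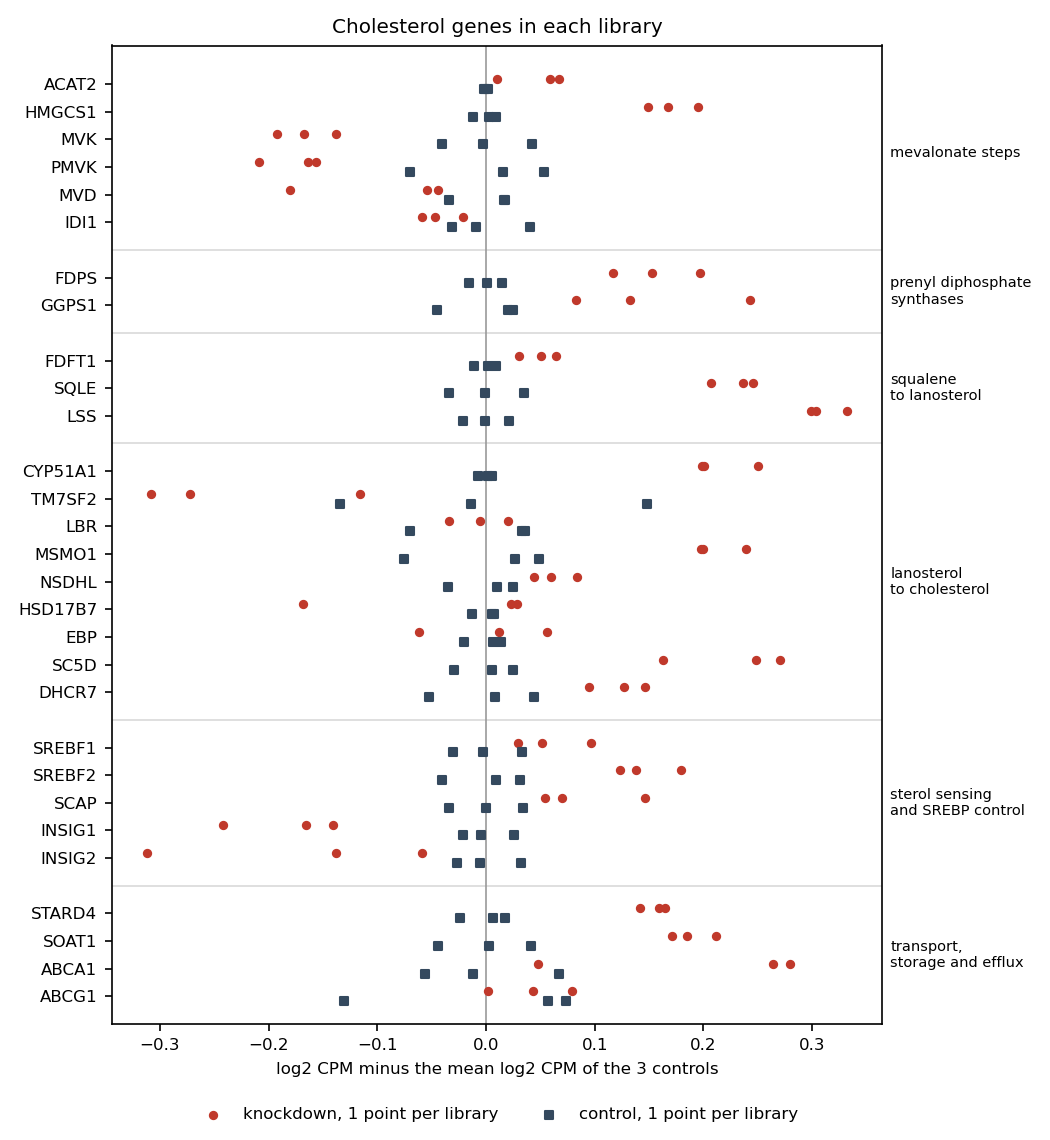
Level of each of the 29 genes in every library, as log2 CPM minus the mean log2 CPM of the 3 controls; red circles are knockdown libraries, dark squares are controls, 1 point per library, ordered by step of the pathway. All 3 knockdown libraries lie above the controls for 16 genes, LSS farthest, and below them for 5, while 8 genes overlap.

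Promoter sequences are shown for 4 of the genes on which the account turns: HMGCS1 at the entry to the pathway, LSS with the largest rise, SREBF2 as the regulator that rose, and INSIG1 as the regulator that fell with the smallest adjusted p. Each run covers 250 bases before to 50 after the RefSeq transcript start on GRCh38.p14, read 5′ to 3′ on the gene's own strand. Capitals mark 5 searched motifs on either strand: the sterol-regulatory type TCACNCCAC and its looser form TCANNCCAC, which covers every match of the first, the CCAAT box CCAAT, the GC box GGGCGG and the E-box CACGTG. For HMGCS1 the first of its 2 listed starts is given.
HMGCS1 (chr5:43313363-43313662, minus strand): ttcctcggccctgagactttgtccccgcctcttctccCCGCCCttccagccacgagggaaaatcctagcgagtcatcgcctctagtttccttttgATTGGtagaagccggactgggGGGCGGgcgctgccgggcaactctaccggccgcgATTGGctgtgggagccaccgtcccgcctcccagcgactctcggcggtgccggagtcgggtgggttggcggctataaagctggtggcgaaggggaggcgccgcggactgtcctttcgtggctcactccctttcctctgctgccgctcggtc
LSS (chr21:46228725-46229024, minus strand): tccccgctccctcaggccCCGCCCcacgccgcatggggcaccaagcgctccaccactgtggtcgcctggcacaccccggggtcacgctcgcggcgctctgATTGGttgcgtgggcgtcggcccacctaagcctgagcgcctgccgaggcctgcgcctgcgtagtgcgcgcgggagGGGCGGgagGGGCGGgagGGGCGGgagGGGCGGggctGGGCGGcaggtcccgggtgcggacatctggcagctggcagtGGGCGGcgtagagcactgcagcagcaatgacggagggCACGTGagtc
SREBF2 (chr22:41832855-41833154, plus strand): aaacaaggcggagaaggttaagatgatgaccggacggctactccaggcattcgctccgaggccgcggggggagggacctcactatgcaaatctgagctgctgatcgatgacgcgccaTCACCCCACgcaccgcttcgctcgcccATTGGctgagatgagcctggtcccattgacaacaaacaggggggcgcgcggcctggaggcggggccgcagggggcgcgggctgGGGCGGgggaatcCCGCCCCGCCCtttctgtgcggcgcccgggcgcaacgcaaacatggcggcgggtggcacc
INSIG1 (chr7:155297628-155297927, plus strand): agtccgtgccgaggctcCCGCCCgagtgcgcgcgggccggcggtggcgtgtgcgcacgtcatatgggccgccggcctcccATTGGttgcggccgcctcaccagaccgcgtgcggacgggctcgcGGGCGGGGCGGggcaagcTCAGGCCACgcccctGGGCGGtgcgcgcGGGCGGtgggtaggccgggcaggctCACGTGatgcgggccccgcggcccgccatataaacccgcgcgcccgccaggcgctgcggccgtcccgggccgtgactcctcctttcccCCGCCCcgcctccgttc

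SREBF2 held the sequence TCACCCCAC at bases 118 to 126 of its run, and INSIG1 held TCAGGCCAC, a match to the looser form, at bases 143 to 151. Promoters were found for 25 of the 29 genes, and a gene with several starts was counted as holding a motif if any of them did. TCACNCCAC was present for 1 of the 25 genes, SREBF2, and for 1.39% of all 27305 genes with a listed promoter, while TCANNCCAC was present for 2 of the 25 and 4.74% of all. CCAAT was present for 18 of the 25 genes (72.0%), against 39.7% of all genes in the table. Among genes with a promoter, it was present for 10 of 12 called higher, 3 of 5 called lower and 5 of 8 not called. GGGCGG was present for 23 of the 25 (92.0%), against 48.3% of all, and CACGTG for 5, against 8.77% of all. The 27305 genes include genes not expressed in these cells, whereas all 25 were expressed. No comparison with expressed genes alone was made, so these contrasts cannot be assigned to the pathway. A match is a run of letters and not a shown binding site, and its absence from these windows says nothing about a factor.

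The first steps of the mevalonate pathway moved in both directions, as did all genes tested (22.2% called higher and 21.9% lower). Of the 6 genes 1 was called higher, 2 lower and 3 were not called; their median log2 fold change was -0.07. HMGCS1 (ENSG00000112972.15), which condenses acetyl-CoA with acetoacetyl-CoA to HMG-CoA, had 377, 384 and 372 CPM in knockdown libraries 1 to 3, against 333, 336 and 338 CPM in controls 1 to 3. The groups did not overlap, and HMGCS1 rose by a log2 of 0.17 (SE 0.02, edgeR adjusted p = 3.3e-08). MVK, which phosphorylates mevalonate, had 28.7, 27.7 and 28.1 CPM in knockdown libraries, against 31.6, 32.5 and 30.7 CPM in controls. PMVK, the kinase of the next step, had 29.8, 28.8 and 29.9 CPM in knockdown libraries, against 33.7, 34.6 and 31.8 CPM in controls. For both kinases every knockdown library lay below every control, with log2 fold changes of -0.17 (SE 0.05, edgeR adjusted p = 0.003) for MVK and -0.18 (SE 0.05, edgeR adjusted p = 0.0018) for PMVK. Both calls ended with total-count scaling, at adjusted p = 0.11 for MVK and 0.0743 for PMVK, and on both FPKM scales. MVK shares 306 exonic bases with MMAB on the other strand in GENCODE 29, and whether the counting used strand is not stated.

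MVD, the decarboxylase that yields isopentenyl diphosphate, had 40.7, 37.1 and 40.4 CPM in knockdown libraries and 42.5, 42.5 and 41 CPM in controls. Its log2 fold change was -0.09 (SE 0.04) and was not called at an edgeR adjusted p of 0.079, although the groups did not overlap. Without knockdown library 3 it was called lower, at a log2 fold change of -0.11 and adjusted p = 0.0478. IDI1, which interconverts the isopentenyl and dimethylallyl diphosphates, had 161 ± 2.17 CPM in knockdown libraries and 166 ± 4.21 CPM in controls (SD, n = 3 each) and was not called. ACAT2, the cytosolic thiolase that makes acetoacetyl-CoA, had 115 ± 2.45 CPM in knockdown libraries and 111 ± 0.137 CPM in controls (SD, n = 3 each). It was not called with TMM factors (log2 fold change 0.05, edgeR adjusted p = 0.18) but was called higher with total-count scaling (0.12, adjusted p = 2.9e-04) and on both FPKM scales. ACAT2 shares 397 exonic bases with TCP1 on the other strand, and TCP1 averaged 7154 counts in knockdown libraries and 8968 in controls, so the ACAT2 value is uncertain.

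Both prenyl diphosphate synthases rose by almost the same amount. FDPS, which makes farnesyl diphosphate, the last intermediate shared by sterols and protein prenylation, had 288, 273 and 279.6 CPM in knockdown libraries, against 254, 249 and 252 CPM in controls. GGPS1, which extends farnesyl to geranylgeranyl diphosphate, had 48.9, 47.3 and 52.8 CPM in knockdown libraries, against 45.4, 45.3 and 43.3 CPM in controls. Neither gene overlapped between groups, and the log2 fold changes were 0.16 (SE 0.02, edgeR adjusted p = 1.0e-06) for FDPS and 0.16 (SE 0.04, edgeR adjusted p = 0.002) for GGPS1. Per length, FDPS was the more abundant, at 66.4 ± 1.96 FPKM in knockdown libraries and 55.2 ± 0.794 FPKM in controls, with GGPS1 at 11.5 ± 0.889 and 9.57 ± 0.221 FPKM (SD, n = 3 each). The FPKM ratio of FDPS to GGPS1 was 5.79 ± 0.325 in knockdown libraries and 5.77 ± 0.168 in controls, and did not differ beyond its spread (exact two-sided permutation p = 1). FDPS has 8 named pseudogenes in GENCODE 29, and GGPS1 shares 1422 exonic bases with TBCE on the same strand, so reads of both genes may be shared.

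The steps through squalene held the largest rise of the 29 genes. LSS (ENSG00000160285.15, chr21:46188141-46228824, minus strand, GRCh38 coordinates of GENCODE 29), which folds squalene epoxide into lanosterol, had 68.2, 68.03 and 69.6 CPM in knockdown libraries, against 55.3, 56.1 and 54.5 CPM in controls. Replicates of either group spanned under 2 CPM, and LSS rose by a log2 of 0.31 (SE 0.03, edgeR adjusted p = 1.1e-09). SQLE, the squalene epoxidase and a controlled step of the pathway, had 193, 198 and 197 CPM in knockdown libraries, against 171, 163 and 167 CPM in controls. It rose by a log2 of 0.23 (SE 0.02, edgeR adjusted p = 1.4e-09), with every knockdown library above every control. FDFT1, the squalene synthase that commits farnesyl diphosphate to sterols, had 379.8, 371 and 376 CPM in knockdown libraries, against 364, 361 and 366 CPM in controls. Its groups did not overlap either, but the difference was small, with a log2 fold change of 0.05 (SE 0.02) and an edgeR adjusted p of 0.061. FDFT1 was called higher by limma-voom (adjusted p = 0.0446), with the filter of 1 CPM in 3 libraries (0.0337), without knockdown library 2 (0.0301), with total-count scaling (6.3e-06) and on both FPKM scales (0.0025 and 0.0023).

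Of the 9 genes that turn lanosterol into cholesterol 4 were called higher, 1 lower and 4 were not called. Among all genes tested 22.2% were called higher and 21.9% lower. The median log2 fold change of these 9 genes was 0.06. CYP51A1, the lanosterol demethylase, had 238, 238 and 247 CPM in knockdown libraries, against 208, 207 and 206 CPM in controls, and rose by a log2 of 0.22 (SE 0.02, edgeR adjusted p = 1.2e-09). MSMO1, which oxidizes the methyl groups of the sterol ring, had 191, 191 and 196 CPM in knockdown libraries, against 169, 158 and 172 CPM in controls, and rose by 0.21 (SE 0.03, edgeR adjusted p = 6.8e-08). Neither gene overlapped between groups, and in MSMO1 the lowest control was control 2. SC5D, the lathosterol desaturase, had 43.9, 46.6 and 47.3 CPM in knockdown libraries, against 39.9, 38.4 and 39.3 CPM in controls, and rose by 0.23 (SE 0.04, edgeR adjusted p = 1.4e-05). DHCR7, which reduces dehydrocholesterol to cholesterol, had 182, 186 and 189 CPM in knockdown libraries, against 172, 165 and 176 CPM in controls, and rose by 0.12 (SE 0.03, edgeR adjusted p = 1.8e-04). All knockdown libraries again lay above all controls for both. CYP51A1 has 3 named pseudogenes in GENCODE 29 and shares 2844 exonic bases with AC000120.2, a protein-coding gene model on its own strand, which averaged 0.3 counts in each group. It also shares 99 bases with AC000120.3 on the same strand, which averaged 359.7 counts in knockdown libraries and 293 in controls. In all 13 of the 29 genes share exonic bases with another gene in GENCODE 29, 12 of them on the opposite strand, and their values are uncertain to that extent.

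TM7SF2 and LBR encode sterol reductases for the same step of this branch, and LBR is also an inner nuclear membrane receptor for lamin. TM7SF2 had 21.2, 21.7 and 24.2 CPM in knockdown libraries, against 23.9, 29.1 and 25.96 CPM in controls. Knockdown library 3 lay above control 1, so the groups overlapped, and TM7SF2 fell by 0.23 on the log2 scale (SE 0.06, edgeR adjusted p = 0.0059). Without control 2, the highest library, the log2 fold change was -0.16 and no longer called (adjusted p = 0.0524), and both FPKM scales also ended the call (adjusted p = 0.301 and 0.298). LBR had 90.2 ± 1.69 CPM in knockdown libraries and 90.6 ± 3.76 CPM in controls (SD, n = 3 each) and a log2 fold change of -0.01 (SE 0.03). The FPKM ratio of LBR to TM7SF2 was 2.59, 2.48 and 2.18 in knockdown libraries and 2.32, 1.77 and 2.13 in controls, with overlapping groups (exact two-sided permutation p = 0.2).

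The remaining 3 genes of this stretch gave no call. NSDHL, the sterol dehydrogenase, had 76.1 ± 1.06 CPM in knockdown libraries and 72.9 ± 1.57 CPM in controls (log2 fold change 0.06, SE 0.03). It was called higher with total-count scaling (0.14, adjusted p = 4.1e-04) and on both FPKM scales. HSD17B7, the ketosteroid reductase, had 27.5, 23.99 and 27.4 CPM in knockdown libraries and 27.1, 26.7 and 27.1 CPM in controls, with knockdown library 2 lowest, and it has 2 named pseudogenes. EBP, the sterol isomerase, had the highest level per length of the 29 genes, at 80.2 ± 4.58 FPKM in knockdown libraries and 74.2 ± 1.24 FPKM in controls (SD, n = 3 each). Its log2 fold change was 0.00 (SE 0.03), and with total-count scaling it was called higher at 0.08 (adjusted p = 0.0131).

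Summed over the 20 enzymes, the level was 2763, 2740.0 and 2782 CPM in knockdown libraries 1 to 3, against 2581, 2533 and 2573 CPM in controls 1 to 3. The mean was 2762 ± 21.1 CPM in knockdown libraries and 2562 ± 25.8 CPM in controls (SD, n = 3 each), which is 7.78% higher in knockdown libraries with TMM factors. On the authors' FPKM scale the sum was 634.7 ± 19.2 FPKM in knockdown libraries and 552.4 ± 7.67 FPKM in controls (SD, n = 3 each), which is 14.9% higher in knockdown libraries. Of the 20 enzyme genes 9 were called higher, 3 lower and 8 were not called, where 22.2% of all genes tested were called higher and 21.9% lower.

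**Figure D2:**
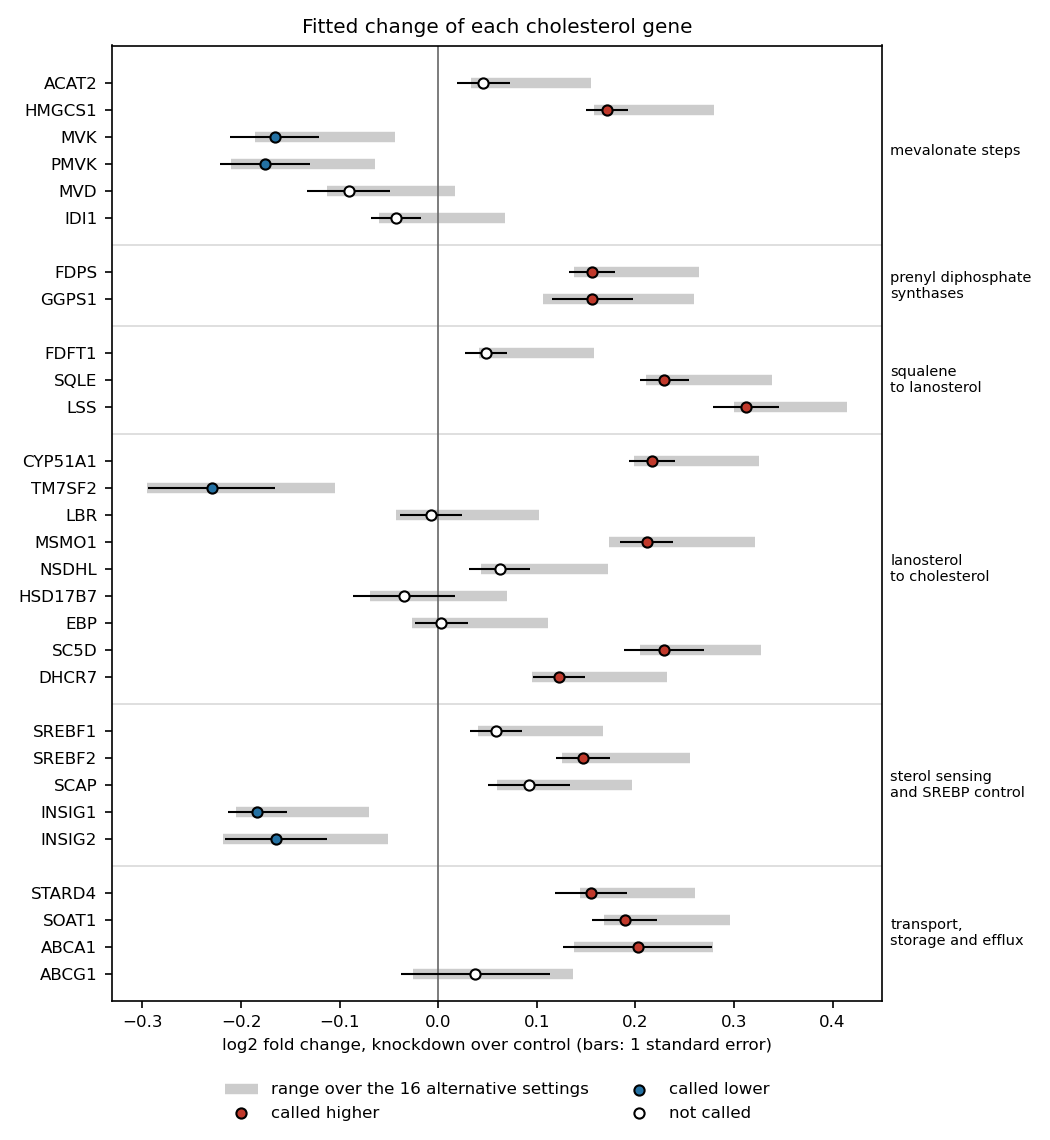
Fitted log2 fold change, knockdown over control, of the 29 genes with bars of 1 standard error; red points were called higher, blue points lower, open points were not called, and grey bands span the 16 alternative settings. LSS lies farthest right at 0.31 and TM7SF2 farthest left at -0.23, and most bands reach to the right of their point, where the FPKM and total-count scales lie.

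Sterol sensing genes had calls in both directions, which does not set them apart. Among tested genes with a mean of at least 10 CPM, 28.3% were called higher and 31.8% lower. Of the 5 genes 1 was called higher, 2 lower and 2 were not called; their median log2 fold change was 0.06. SREBF2 (ENSG00000198911.12, chr22:41833079-41907308, plus strand), whose product chiefly drives cholesterol synthesis and whose promoter above holds TCACCCCAC, had 127, 128 and 132 CPM in knockdown libraries, against 117, 113 and 119 CPM in controls. The groups did not overlap, and SREBF2 rose by a log2 of 0.15 (SE 0.03, edgeR adjusted p = 3.5e-05). SREBF1, whose product favours fatty acid synthesis, had 143, 149.7 and 145 CPM in knockdown libraries, against 139.8, 137 and 143 CPM in controls. Here control 3 lay above knockdown library 1, and the log2 fold change of 0.06 (SE 0.03) was not called at an edgeR adjusted p of 0.071. SREBF1 was called higher without knockdown library 1 (adjusted p = 0.0432), without control 3 (0.0427), with the filter of 1 CPM in 3 libraries (0.044), with total-count scaling (6.1e-05) and on both FPKM scales (0.0075 and 0.0072). The FPKM ratio of SREBF2 to SREBF1 was 0.967, 0.933 and 0.989 in knockdown libraries and 0.913, 0.899 and 0.905 in controls. Every knockdown library had the higher ratio, and the exact two-sided permutation p was 0.1, the smallest that 3 against 3 libraries allow.

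SCAP, the escort of the SREBP precursors, had 38.8, 38.3 and 40.9 CPM in knockdown libraries, against 36.1, 36.9 and 37.8 CPM in controls. Its groups did not overlap, but the log2 fold change of 0.09 (SE 0.04) was not called at an edgeR adjusted p of 0.074, and was called higher with total-count scaling (0.17, adjusted p = 9.0e-04) and on both FPKM scales. INSIG1 (ENSG00000186480.13, chr7:155297776-155310235, plus strand), an anchor of SCAP in the endoplasmic reticulum, had 97.4, 99.1 and 92.4 CPM in knockdown libraries, against 109, 108 and 111 CPM in controls. All knockdown libraries lay below all controls, and INSIG1 fell by 0.18 on the log2 scale (SE 0.03, edgeR adjusted p = 3.8e-06). The fall was called in 14 of the 16 alternative settings and not on the FPKM scales, where it was -0.07 with either pseudocount (adjusted p = 0.0958 and 0.0963).

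INSIG2, the second anchor, had 24.7, 29.4 and 27.8 CPM in knockdown libraries, against 31.3, 30.5 and 30.05 CPM in controls, with knockdown library 1 lowest. It fell by 0.16 on the log2 scale (SE 0.05, edgeR adjusted p = 0.0094). That call was lost without knockdown library 1 (log2 fold change -0.10, adjusted p = 0.143), without control 1 (adjusted p = 0.0521), with DESeq2 (adjusted p = 0.0507), with total-count scaling (adjusted p = 0.171) and on both FPKM scales. Per length INSIG1 was the more abundant, and the FPKM ratio of INSIG1 to INSIG2 was 3.84 ± 0.378 in knockdown libraries and 3.87 ± 0.126 in controls (SD, n = 3 each, exact two-sided permutation p = 1). Over the 5 within-pathway ratios tested this way the lowest Benjamini-Hochberg adjusted p was 0.5, and this design could reach no lower than 0.1 before adjustment.

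Of the 4 genes of sterol transport, storage and efflux 3 were called higher, 0 lower and 1 was not called. All genes tested had 22.2% called higher and 21.9% lower. The median log2 fold change of these 4 genes was 0.17. STARD4, a soluble sterol carrier, had 50.9, 50.7 and 50.1 CPM in knockdown libraries, against 44.7, 45.98 and 45.6 CPM in controls, and rose by a log2 of 0.15 (SE 0.04, edgeR adjusted p = 6.8e-04). SOAT1, which esterifies cholesterol for storage in lipid droplets, had 71.5, 73.6 and 72.2 CPM in knockdown libraries, against 61.6, 65.4 and 63.6 CPM in controls, and rose by 0.19 (SE 0.03, edgeR adjusted p = 1.2e-05). Neither overlapped between groups. The efflux transporter genes were the least abundant of the 29 per length. ABCA1, which passes cholesterol to apolipoprotein A-I, had 336, 403 and 451 counts in knockdown libraries and 320, 306 and 347 counts in controls, or 10.7, 12.6 and 12.5 CPM against 10.3, 10 and 10.9 CPM. Control 3 lay above knockdown library 1, and ABCA1 rose by 0.20 (SE 0.08, edgeR adjusted p = 0.028). That call ended without knockdown library 2 or 3 (adjusted p = 0.117 and 0.112), without control 1 or 2 (adjusted p = 0.0762 and 0.114), with DESeq2 (adjusted p = 0.132) and with log2(FPKM + 1) or log2(FPKM + 0.1) (adjusted p = 0.0509 and 0.053).

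ABCG1, which passes cholesterol to lipoprotein particles, had 10.5 ± 0.283 CPM in knockdown libraries and 10.3 ± 0.786 CPM in controls (SD, n = 3 each). Control 2 was its lowest library, and its log2 fold change of 0.04 (SE 0.08) was not called. The FPKM ratio of ABCA1 to ABCG1 was 0.613 ± 0.068 in knockdown libraries and 0.549 ± 0.0335 in controls, which did not differ beyond its spread (exact two-sided permutation p = 0.3). Per length the 29 genes spanned about the same range in both groups, with EBP highest and ABCA1 lowest (0.927 ± 0.0929 FPKM in knockdown libraries and 0.750 ± 0.0361 FPKM in controls). After EBP the most abundant were FDPS at 66.4 ± 1.96 FPKM, FDFT1 at 63.7 ± 1.45 FPKM, CYP51A1 at 60.1 ± 2.49 FPKM and MSMO1 at 59.5 ± 2.20 FPKM in knockdown libraries (SD, n = 3 each). The order of FDPS and FDFT1 was reversed in controls, at 55.2 ± 0.794 and 57.1 ± 0.694 FPKM, while CYP51A1 at 47.9 ± 0.205 and MSMO1 at 47.6 ± 2.40 FPKM lay within their spread of each other in either group.

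**Figure D3:**
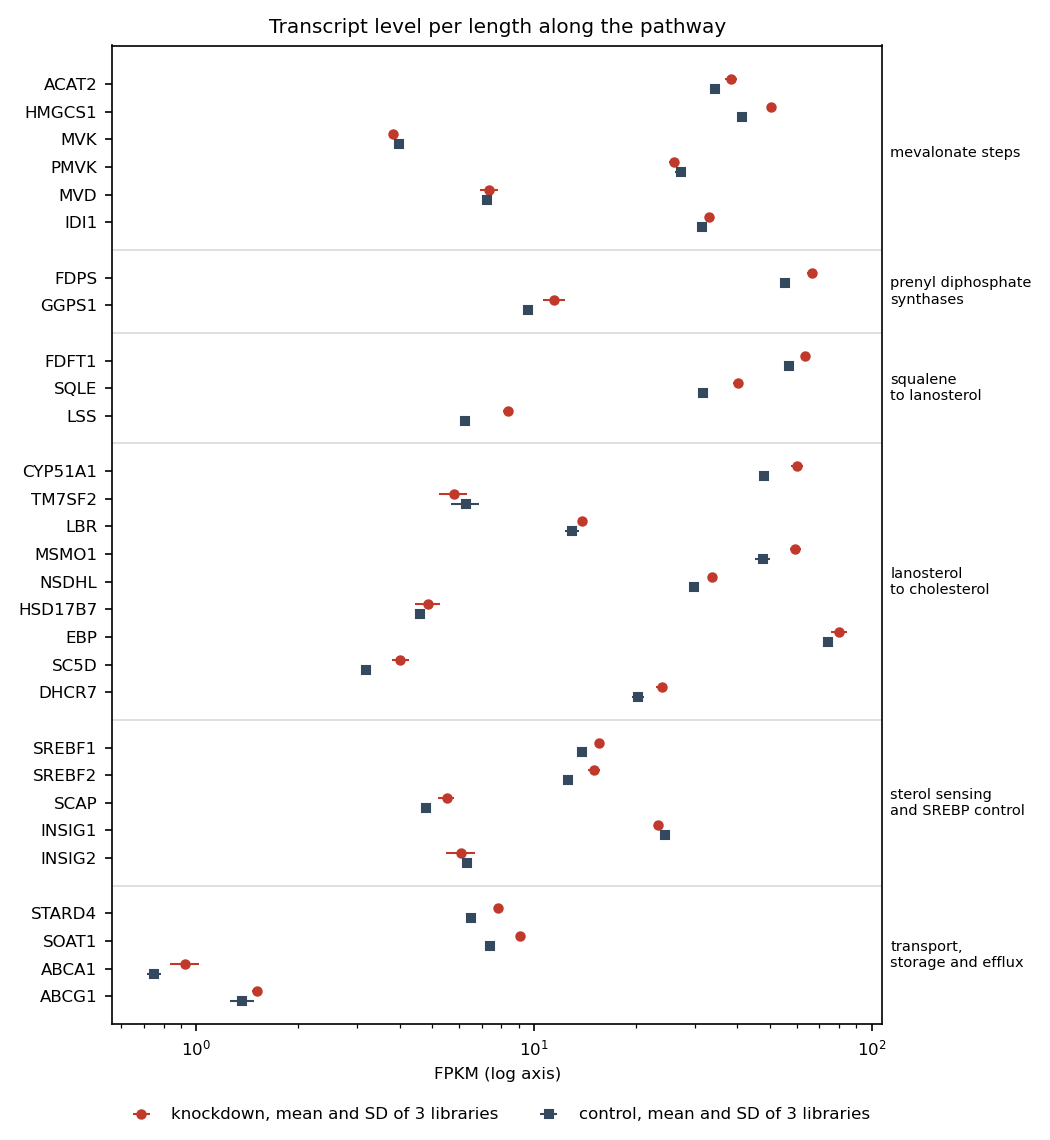
Level per length of each gene as the authors' FPKM on a log axis, with red circles for the mean of the 3 knockdown libraries, dark squares for the mean of the 3 controls, and bars of 1 SD. EBP stands highest at 80.2 FPKM in knockdown libraries and 74.2 FPKM in controls, and ABCA1 lowest at 0.927 and 0.75 FPKM.

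Other genes of sterol metabolism were read in the same fit, where 22.2% of all genes tested were called higher and 21.9% lower. Of 9 further SREBP processing and sterol-linked degradation factors 6 were called higher and 3 lower, with a median log2 fold change of 0.15. ERLIN2, an endoplasmic reticulum protein that takes part in sterol-dependent degradation, had 40.3, 41.5 and 41.1 CPM in knockdown libraries and 33.97, 32.97 and 33.3 CPM in controls and rose by 0.29 (SE 0.04, edgeR adjusted p = 2.7e-07). MBTPS2, the site-2 protease that makes the final cut of the SREBP precursors, had 45.4, 49.6 and 49.04 CPM in knockdown libraries and 58.2, 56.99 and 57.8 CPM in controls and fell by 0.26 on the log2 scale (SE 0.04, edgeR adjusted p = 4.0e-07). Of 9 other uptake and lysosomal export genes 4 were called higher, 2 lower and 3 were not called, with a median of -0.04. Among them the endocytic receptor gene LRP1 had 36 ± 2.24 CPM in knockdown libraries and 26.5 ± 0.296 CPM in controls (SD, n = 3 each) and rose by 0.45 (SE 0.05, edgeR adjusted p = 1.3e-09), while the sterol-regulated membrane protein gene TMEM97 fell by 0.15 (SE 0.03, edgeR adjusted p = 1.1e-05).

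Beside shares of 22.2% called higher and 21.9% lower over all genes tested, the next 2 lists gave these counts. Of 8 sterol exchange proteins 5 were called higher, 1 lower and 2 were not called, with a median of 0.07. The oxysterol-binding protein genes OSBP (log2 fold change 0.25, SE 0.03, edgeR adjusted p = 1.5e-07) and OSBPL2 (0.36, SE 0.05, edgeR adjusted p = 2.8e-07) rose. Of 8 LXR receptor, cofactor and oxysterol enzyme genes 5 were tested, of which 2 were called higher and 0 lower, with a median of 0.15 over those tested. LPCAT3, a phospholipid-remodelling LXR target, had 89.1 ± 1.21 CPM in knockdown libraries and 76.7 ± 0.801 CPM in controls (SD, n = 3 each), and the receptor gene NR1H3 had 15.3 ± 0.783 CPM in knockdown libraries and 13.8 ± 0.382 CPM in controls. Their log2 fold changes were 0.22 (SE 0.03, edgeR adjusted p = 2.1e-07) and 0.15 (SE 0.06, edgeR adjusted p = 0.048). These values stand beside a rise of ABCA1 whose call ended without any 1 of 4 libraries, and an uncalled ABCG1.

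Fatty acid genes that the SREBP factors also control did not share one direction. Neither did all genes tested, with 22.2% called higher and 21.9% lower. Of the 12 genes on this SREBP-linked list 3 were called higher, 5 lower and 4 were not called. TMEM97, the sterol-regulated gene of the uptake list, was counted again among those 5. The median log2 fold change of these 12 was -0.03. FADS2, the delta-6 desaturase, had 638, 639 and 626 CPM in knockdown libraries and 751, 778 and 760.2 CPM in controls and fell by 0.27 on the log2 scale (SE 0.02, edgeR adjusted p = 2.4e-13). ACACA, the acetyl-CoA carboxylase that makes malonyl-CoA, had 168, 168 and 162 CPM in knockdown libraries and 133, 134 and 133 CPM in controls and rose by 0.32 (SE 0.03, edgeR adjusted p = 1.2e-12). The groups did not overlap for either gene.

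**Figure D4:**
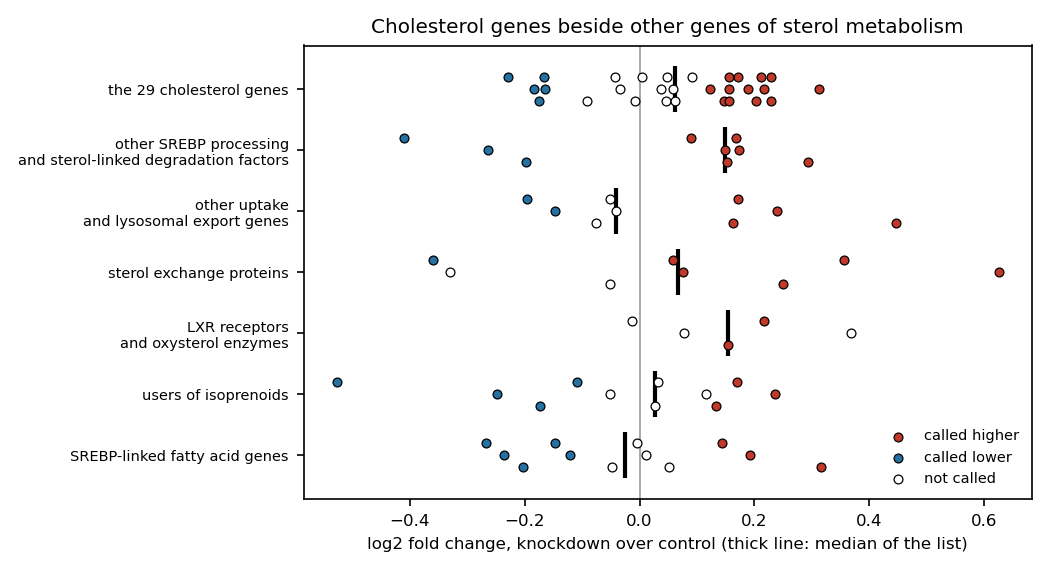
Log2 fold change, knockdown over control, of the 29 genes (top row) and of the tested members of 6 other lists of sterol metabolism; red points were called higher, blue lower, open points were not called, and the thick line is the list's median. The 29 genes lie between -0.23 and 0.31 around a median of 0.06. The SREBP-linked fatty acid list of 12 genes, which also counts the sterol-regulated TMEM97 of the uptake list, lies between -0.27 and 0.32 around -0.03.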

How the data were processed

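The authors deposited whole-number read counts per gene and FPKM values for 6 poly(A)-selected, directional, paired-end RNA-seq libraries. HISAT2, DESeq2 and the build GRCh38 are named, without a role, per the submitters' processing notes. No counter, annotation release or strand setting is given in the sources used here. Columns were matched to libraries by title. Genes with at least 10 counts by filterByExpr were kept, scaled with TMM and fitted by robust quasi-likelihood in edgeR 4.0.16 (R 4.3.3), with Benjamini-Hochberg adjustment over all 17089 genes; limma was 3.58.1. CPM values are TMM-scaled and n is 3 per group. Log2 fold changes are knockdown over control, and each standard error is the absolute log2 value divided by the root of its F statistic. The steps were tested on simulated counts. Levels are compared between genes only in the authors' FPKM, rounded to 2 decimals.

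Alternatives were RLE, upper-quartile and total-count scaling, 2 other filters, DESeq2 1.42.0, limma-voom, limma on log2(FPKM + 1) and log2(FPKM + 0.1), the replicate number as a block, and each library left out. Replicate pairs of a group all differed by more than sampling noise (chi-square per degree of freedom 1.78 to 2.88). GENCODE 29 gave coordinates for all 29 genes by identifier without version, and RefSeq (GRCh38.p14) gave promoters for 25. The members and lists were chosen with earlier results of these data known. Named from other lists are the called genes with the 2 smallest adjusted p. The single markers CDH1, KRT8, KRT18, LUM, DCN, CDH5, PDGFRA, SERPINA1 and ALB were named after the values were seen. The level limit of 10 CPM for the background was also set then. Counting error alone does not set the precision here: the common dispersion between libraries corresponded to a coefficient of variation of 2.61%.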

Additional observations from a re-analysis of the deposited data

How the results depend on the processing

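Calls over all genes numbered 7531 and stayed within 1.5 times of that under all 16 alternatives. The 29 genes' median log2 fold change of 0.06 became 0.14 under total-count scaling, 0.16 for log2(FPKM + 1) and 0.17 for log2(FPKM + 0.1), and lay between 0.0435 and 0.0761 with one library left out. Against 5 genes called lower, total-count scaling left 2 and each FPKM scale 0. These scales carry a shift of all genes, whose median was 0.08 for total-count scaling, 0.05 for log2(FPKM + 1) and 0.10 for log2(FPKM + 0.1). With one library left out 12 to 14 genes were called higher and 4 to 6 lower.

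Sign changes touched 6 genes, none of them called with TMM factors. Under total-count scaling the log2 fold change was 0.0344 for IDI1, 0.0693 for LBR and 0.0419 for HSD17B7. For log2(FPKM + 1) it was 0.0155 for MVD, 0.0657 for IDI1, 0.0962 for LBR and 0.059 for HSD17B7. For log2(FPKM + 0.1) it was 0.0172 for MVD, 0.0676 for IDI1, 0.1027 for LBR and 0.0695 for HSD17B7. Leaving out one library gave -0.0433 to 0.0105 for LBR, -0.0691 to 0.0254 for HSD17B7, -0.0264 to 0.0343 for EBP and -0.0254 to 0.0741 for ABCG1. Any pairing of libraries by replicate number was weak: deviations of equally numbered libraries correlated at 0.079, 0.012 and 0.092 over 5149 genes. As 4 of 6 libraries correlated best with their own number, these values do not settle whether such libraries were handled together. With the replicate block 7642 genes were called, and the 29 genes split into 13 higher and 5 lower. Depth limits ABCA1 and ABCG1 most, the least counted of the 29.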

Other observations

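Genes that use the isoprenoids branching off before squalene moved in both directions. The same held for all genes tested, with 22.2% called higher and 21.9% lower. Of 11 isoprenoid users 3 were called higher, 4 lower and 4 were not called. The median log2 fold change of these 11 was 0.03. PDSS1, a subunit of the synthase that builds the ubiquinone side chain, had 9.66, 10.02 and 10.4 CPM in knockdown libraries 1 to 3, against 14.5, 14.2 and 14.8 CPM in controls 1 to 3, and fell by 0.53 on the log2 scale (SE 0.07, edgeR adjusted p = 6.4e-08). PDSS2, which encodes the other subunit of that synthase and was picked after its value was seen, had 13.3, 15.1 and 15.9 CPM in knockdown libraries, against 12.8, 12.7 and 12.3 CPM in controls, and rose by 0.24 (SE 0.07, edgeR adjusted p = 0.0055). The groups did not overlap for either subunit. RABGGTB, a subunit of the enzyme that geranylgeranylates RAB proteins, fell by 0.17 (SE 0.03, edgeR adjusted p = 7.6e-05).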
